A study of Homo sapiens with 10 samples.

Results

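The NRF2 antioxidant response genes examined here were NFE2L2, KEAP1, GCLC, GCLM, SRXN1, TXNRD1, HMOX1, NQO1 and SLC7A11. They were taken by gene symbol, and all 9 were found among 57820 gene identifiers in the count files. All 9 were also among the 16006 genes that passed the filter on low counts, SRXN1 only through the groups where it was high. D425 and HD-MB03 are established cell lines of Group 3 medulloblastoma, a childhood tumour of the cerebellum. CRX, a homeodomain factor that drives photoreceptor genes, was targeted in both lines by short hairpin RNA from a doxycycline-inducible lentiviral vector. D425 gave 3 libraries labelled shCRX and 3 controls, of which 2 were parental cells and 1 carried the empty vector. HD-MB03 gave 2 libraries labelled shCRX and 2 controls, 1 parental and 1 with the empty vector. Per the labels, all cells received doxycycline at 4 µg/ml over 72 h, were grown with serum and, where transduced, were polyclonal populations. A pair of hairpins was used, and which hairpin a library carries is not given in the sources used here.

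NRF2, the protein of NFE2L2, is a basic leucine zipper transcription factor that pairs with small MAF proteins and binds antioxidant response elements. KEAP1 hands NRF2 to a CUL3 ubiquitin ligase for degradation, and oxidants or electrophiles that modify KEAP1 cysteines let NRF2 accumulate. Its activity is therefore set largely at the protein level, which messenger RNA does not show. The target genes serve glutathione synthesis (SLC7A11, GCLC, GCLM), the thioredoxin system (TXNRD1, SRXN1), quinone reduction (NQO1) and heme breakdown (HMOX1).

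To look for the core motif of the antioxidant response element in these genes, promoter windows of RefSeq (GRCh38.p14, 250 bases before to 50 bases after the start site) were searched. The motif was TGACNNNGC on both strands. In all, 7 of the 9 genes matched an entry, with 10 windows between them, and HMOX1 and SLC7A11 did not. The motif was found in GCLM, KEAP1 and TXNRD1, against 4687 of 35116 promoter windows (13.3%) in the whole table and 16.1% of genes with at least 1 window. The match in GCLM and the second of 2 in KEAP1 lie within an identical 13-base run, TCTGCTTAGTCAT, and no match overlapped the AP-1 motif TGANTCA, which is present in 7.71% of windows. One window of each of these 3 genes is printed below, on the gene's strand, with the motif in capitals. NQO1 is added as the more abundant of the 2 genes that passed a test between shCRX and control libraries, and its window holds no match. Bases outside the windows were not searched, so a gene without a match may hold the motif elsewhere.
GCLM, chr1:93909381-93909680, minus strand: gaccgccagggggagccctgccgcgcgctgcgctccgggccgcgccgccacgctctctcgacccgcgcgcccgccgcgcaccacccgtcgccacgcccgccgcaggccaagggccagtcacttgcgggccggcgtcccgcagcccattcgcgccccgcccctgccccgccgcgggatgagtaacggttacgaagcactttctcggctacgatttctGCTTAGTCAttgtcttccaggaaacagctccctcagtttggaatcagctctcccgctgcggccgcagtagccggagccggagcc
KEAP1, chr19:10502722-10503021, minus strand: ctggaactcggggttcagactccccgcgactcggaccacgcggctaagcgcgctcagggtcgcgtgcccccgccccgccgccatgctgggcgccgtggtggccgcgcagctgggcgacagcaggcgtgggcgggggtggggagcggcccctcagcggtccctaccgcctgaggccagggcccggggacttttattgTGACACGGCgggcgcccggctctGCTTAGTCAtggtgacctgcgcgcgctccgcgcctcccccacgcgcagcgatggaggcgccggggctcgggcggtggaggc
TXNRD1, chr12:104286782-104287081, plus strand: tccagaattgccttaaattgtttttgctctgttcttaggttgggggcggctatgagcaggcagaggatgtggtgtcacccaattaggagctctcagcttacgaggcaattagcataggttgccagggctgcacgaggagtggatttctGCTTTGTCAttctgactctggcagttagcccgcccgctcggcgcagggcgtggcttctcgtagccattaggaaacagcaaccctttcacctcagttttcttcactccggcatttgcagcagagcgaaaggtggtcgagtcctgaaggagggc
NQO1, chr16:69726511-69726810, minus strand: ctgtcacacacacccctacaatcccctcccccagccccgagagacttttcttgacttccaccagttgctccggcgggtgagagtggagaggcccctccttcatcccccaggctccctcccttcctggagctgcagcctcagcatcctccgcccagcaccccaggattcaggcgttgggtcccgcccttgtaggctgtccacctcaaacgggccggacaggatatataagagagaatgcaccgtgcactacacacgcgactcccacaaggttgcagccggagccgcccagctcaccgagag
In the GCLM window the match lies at bases 217 to 225, and in KEAP1 at bases 197 to 205 and 220 to 228, counted from the first base printed. In the printed TXNRD1 window the match lies at bases 149 to 157, and the other TXNRD1 window, not printed, holds 2 matches. These matches are letters in a window and no measurement of binding.

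Between 1.96 and 18.06 M reads were counted in genes per library. CRX did not follow its label in both lines. It was at 20.3, 20.9 and 25.3 CPM (counts scaled to the library size) in D425 shCRX libraries, against 47.5, 29.7 and 64.9 CPM in D425 controls. In HD-MB03 it was at 27.7 and 23.5 CPM in the libraries labelled shCRX, against 12.5 and 12.3 CPM in the controls. Groups are used here as labelled. Whether the HD-MB03 labels were exchanged was not tested, and an exchange would turn the sign of every shCRX effect given for that line and alter the mean and the difference of the lines. Library numbers in the files fall into 1 set from 20 to 62, which holds the D425 shCRX and HD-MB03 control libraries, and 1 from 110 to 136, which holds the rest. The first set is also the shallower, with up to 9.53 M counted reads against at least 11.36 M. Within a line, number set, depth and shCRX label therefore cannot be told apart. The share of unaligned reads was 30.9% and 26.4% in both HD-MB03 controls (parental, then vector) and 4.54% to 7.99% elsewhere. Markers of Group 3 medulloblastoma summed to 2983 to 4666 CPM in D425 shCRX libraries, against 5569 to 6397 CPM in D425 controls, and to 7371 to 7645 CPM in the HD-MB03 libraries labelled shCRX, against 7098 to 8900 CPM in the controls. Of 7 tested, CRX, the targeted gene, included, 3 fell in D425, beside 1.37% of all tested genes. In HD-MB03 0 passed, where 0.262% of all tested genes were called higher and 1.24% lower. The median log2 fold changes of these markers were -0.92 in D425 and -0.12 in HD-MB03, and the part of this shift in the results below was not tested. Of other cell types, fibroblast markers summed to at most 16.6 CPM, endothelial markers to at most 1.56 CPM and erythroid markers to at most 0.512 CPM.

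In D425, NQO1 and SRXN1 were higher in shCRX libraries than in controls, and the other 7 genes did not pass the test (edgeR quasi-likelihood, Benjamini-Hochberg adjusted p under 0.05 over all tested genes). Of all genes tested, 1.61% (257) were called higher and 1.37% (219) lower in this comparison, a split that became 367 and 151 with library totals in place of TMM scaling. In bulk libraries, fewer expressing cells and less RNA per cell cannot be told apart. In HD-MB03, with groups as labelled, SRXN1 passed in the opposite direction, lower in the libraries labelled shCRX. There 0.262% of all genes were called higher and 1.24% lower. The SRXN1 calls of D425 and HD-MB03 were favoured in advance, since the gene passed the low-count filter only through its high groups. They are a description. Averaged over the lines, 0 of the 9 genes passed, where 0.225% of all genes were called in either direction. HMOX1 alone of the 9 had an unadjusted p under 0.05 in that mean (edgeR adjusted p = 0.346), and DESeq2 and limma-voom also called 0.

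**Figure D1:**
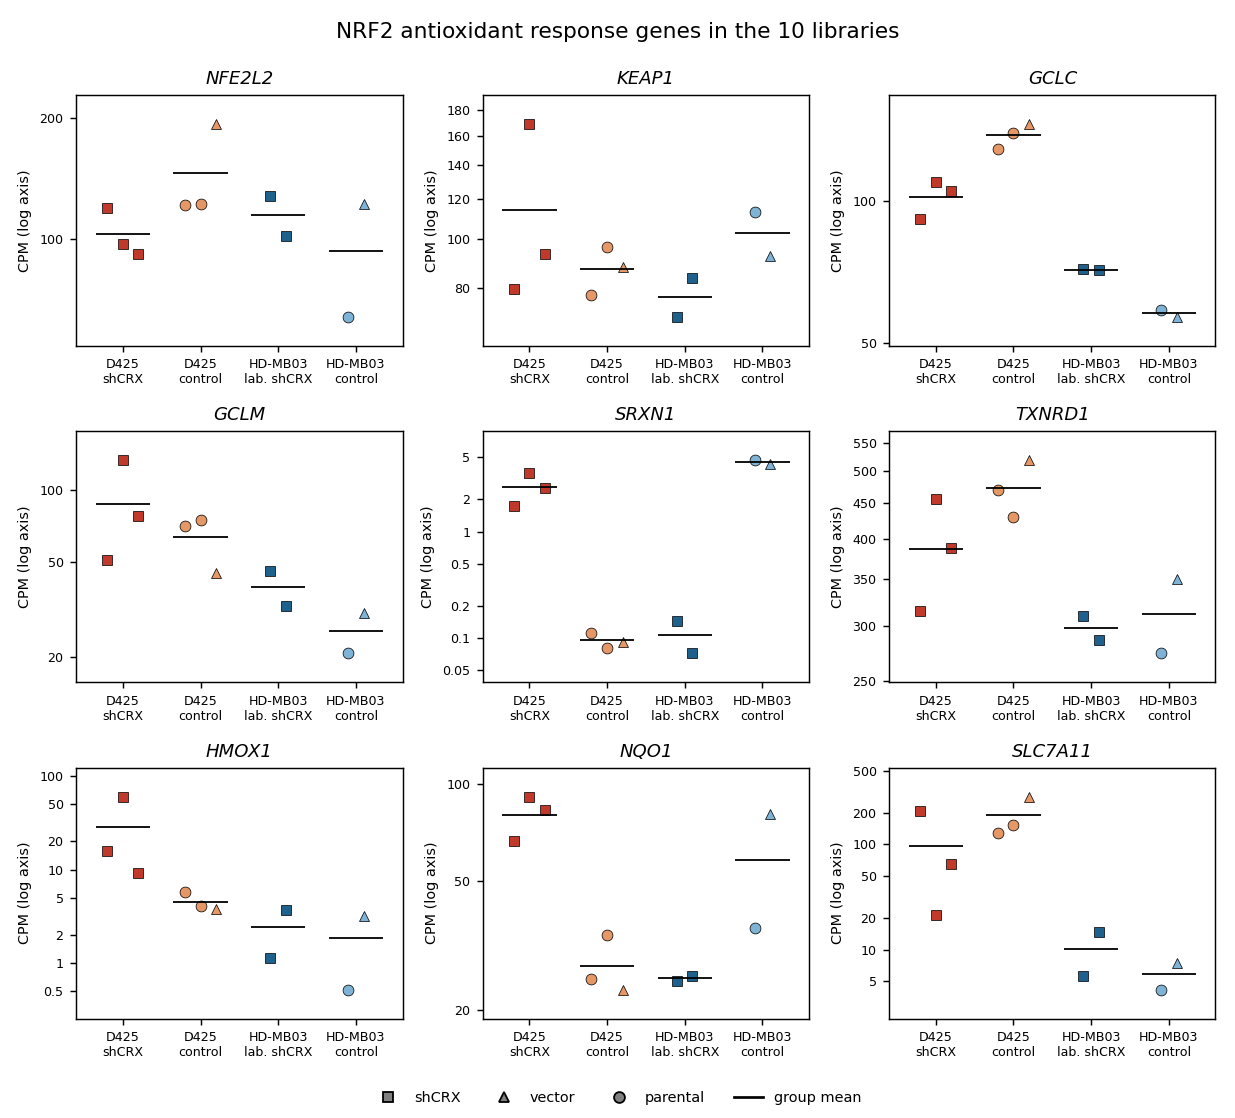
Level of each of the 9 genes in the 10 libraries, in CPM on a log axis that differs between panels. Squares are libraries labelled shCRX (lab. shCRX in HD-MB03), triangles empty-vector and circles parental controls, and lines are group means. NQO1 lies between 66.7 and 91.6 CPM in D425 shCRX libraries and between 23.1 and 34.1 CPM in D425 controls, and SLC7A11 separates all D425 from all HD-MB03 libraries.

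NFE2L2, the gene of NRF2 itself, was at 120, 97.4 and 91.6 CPM in D425 shCRX libraries, against 122, 122 and 193 CPM in D425 controls. All 3 shCRX libraries lay below the controls, the nearest by a small margin, and the log2 fold change was -0.50 (95% interval -1.05 to 0.06, edgeR adjusted p = 0.348). NFE2L2 in HD-MB03 was at 128 and 102 CPM in the libraries labelled shCRX, against 64.0 and 122 CPM in parental and vector controls, and the groups overlapped. KEAP1, which marks NRF2 for degradation, was at 79.9, 169 and 93.6 CPM in D425 shCRX libraries, against 77.5, 96.4 and 88.1 CPM in controls. A single library, D425 shCRX 2, stood above all others, and the log2 fold change of 0.38 (95% interval -0.16 to 0.93, edgeR adjusted p = 0.476) became -0.03 without it. KEAP1 was at 70.3 and 83.9 CPM in the HD-MB03 libraries labelled shCRX, against 113 and 92.8 CPM in controls (log2 fold change -0.42, edgeR adjusted p = 0.533).

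NQO1, a quinone reductase that is a standard readout of NRF2 activity, was at 66.7, 91.6 and 83.1 CPM in D425 shCRX libraries, against 24.97, 34.1 and 23.1 CPM in controls. The lowest shCRX library lay well above the highest control. The means were 80.5 ± 12.7 CPM and 27.4 ± 5.91 CPM (SD, n = 3 each), a log2 fold change of 1.55 ± 0.27 (SE, 95% interval 0.97 to 2.14, edgeR adjusted p = 0.0105). The call held in each of the 10 fits that leave out 1 library, with adjusted p between 0.00598 and 0.0492. It did not hold against the vector library alone (log2 fold change 1.80, edgeR adjusted p = 0.0693). In HD-MB03, NQO1 was at 24.5 and 25.5 CPM in the libraries labelled shCRX, against 35.9 and 81.0 CPM in parental and vector controls. The groups did not overlap, but the controls differed from each other by more than the lower of them differed from the nearest library labelled shCRX. The log2 fold change was -1.22 (95% interval -1.96 to -0.49, edgeR adjusted p = 0.0986), and -0.50 without the vector library.

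SRXN1, which repairs over-oxidised peroxiredoxins, was scarce in every library. The gene passed the filter on low counts through the D425 shCRX and HD-MB03 control libraries alone, the groups where it was high. That filter thus favoured a call between the groups in advance, and the values below are a description. SRXN1 had 19, 17 and 10 reads in D425 shCRX libraries (1.75, 3.52 and 2.56 CPM), against 2, 1 and 1 reads in D425 controls (0.112, 0.0807 and 0.0909 CPM). Summed, 46 against 4 reads gave a ratio of 24.2 (exact 95% interval 8.85 to 92.7, counting error only), and edgeR gave a log2 fold change of 4.55 (adjusted p = 0.00242). In HD-MB03 the libraries labelled shCRX had 2 and 1 reads (0.143 and 0.0716 CPM), against 9 and 8 reads in controls (4.68 and 4.29 CPM). That was a 41.8-fold lower level (exact 95% interval 12.1 to 223), with an edgeR adjusted p of 0.00752. The HD-MB03 call was lost without the parental library (log2 fold change -5.15) or without shCRX 2 (log2 fold change -4.83). Against the vector library alone, the call held in neither line (log2 fold change 4.62 in D425 and -5.15 in HD-MB03). In the GENCODE v29 annotation, 84.95% of the exonic bases of SRXN1 are shared with another protein-coding gene on its strand, ENSG00000270299. That gene held 4 reads over the 10 libraries, and how the authors' counting treated shared bases is not given in the sources used here, so the level of SRXN1 is uncertain.

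HMOX1, which opens the heme ring and is also repressed by BACH1, was at 15.9, 60.4 and 9.21 CPM in D425 shCRX libraries, against 5.71, 4.03 and 3.82 CPM in controls. All shCRX libraries lay above all controls, but they differed 6.56-fold among themselves. The log2 fold change of 2.64 (95% interval 1.20 to 4.08) missed the threshold (edgeR adjusted p = 0.0560). It was 1.46 (edgeR adjusted p = 0.160) without shCRX 2 and 3.01 (edgeR adjusted p = 0.0340) without shCRX 3. DESeq2 called it (adjusted p = 0.00157). HMOX1 was at 1.14 and 3.72 CPM in the HD-MB03 libraries labelled shCRX, against 0.520 and 3.22 CPM in controls, where it rested on 1 and 6 reads.

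Of the glutathione genes, none passed in either line. SLC7A11, the cystine importer that supplies cysteine for glutathione and is also an ATF4 target, was at 206, 21.5 and 64.7 CPM in D425 shCRX libraries, against 129, 153 and 284 CPM in controls. The 3 shCRX libraries spanned a 9.56-fold range that reached both below and into the control range. The log2 fold change of -0.94 (95% interval -2.31 to 0.43, edgeR adjusted p = 0.486) was -2.15 without shCRX 1 and -0.49 without shCRX 2. In HD-MB03, SLC7A11 was at 5.65 and 14.7 CPM in the libraries labelled shCRX, against 4.16 and 7.51 CPM in controls, and the groups overlapped.

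GCLC, the catalytic subunit of glutamate-cysteine ligase, was at 91.6, 110 and 105 CPM in D425 shCRX libraries, against 130, 140 and 146 CPM in controls. The groups did not overlap, and the log2 fold change was -0.44 (95% interval -0.78 to -0.10, edgeR adjusted p = 0.167). GCLC in HD-MB03 was at 71.8 and 71.4 CPM in the libraries labelled shCRX, against 58.8 and 56.8 CPM in controls (log2 fold change 0.31, edgeR adjusted p = 0.462). GCLM, the modifier subunit that raises the activity of GCLC, was at 50.9, 133 and 78.0 CPM in D425 shCRX libraries, against 71.0, 75.0 and 45.2 CPM in controls. The groups overlapped, and the log2 fold change of 0.45 (edgeR adjusted p = 0.521) became -0.02 without shCRX 2. GCLM was at 45.9 and 32.8 CPM in the HD-MB03 libraries labelled shCRX, against 20.8 and 30.6 CPM in controls (log2 fold change 0.62, edgeR adjusted p = 0.499).

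TXNRD1, the cytosolic thioredoxin reductase, was at 315, 456 and 389 CPM in D425 shCRX libraries, against 469, 430 and 519 CPM in controls. It was at 309 and 287 CPM in the HD-MB03 libraries labelled shCRX, against 274 and 350 CPM in controls. The groups overlapped in both lines, with log2 fold changes of -0.29 (95% interval -0.70 to 0.12) in D425 and -0.07 (95% interval -0.57 to 0.44) in HD-MB03.

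**Figure D2:**
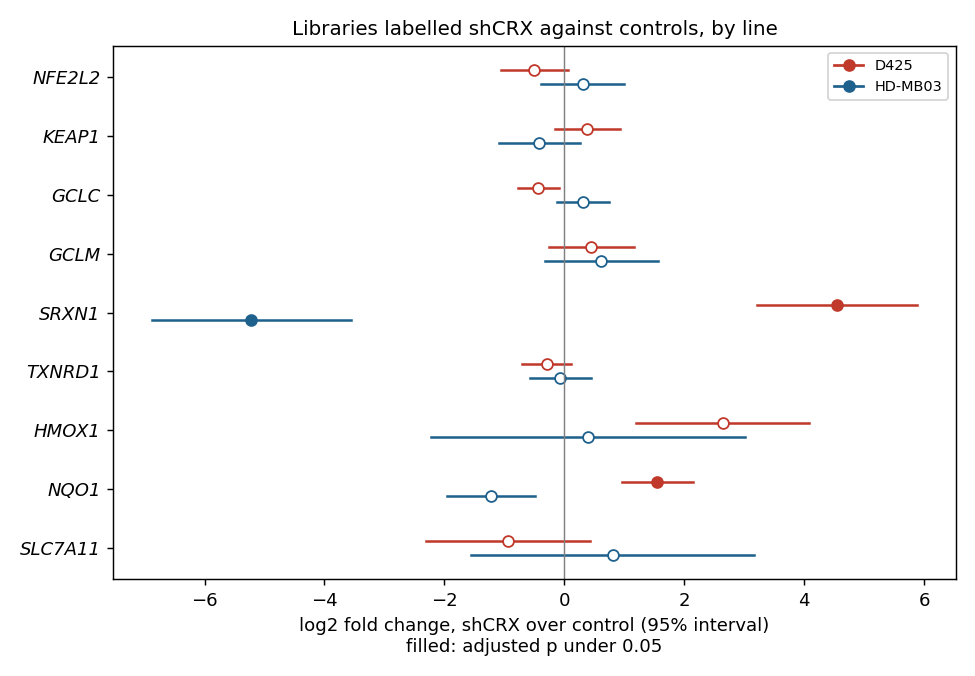
Log2 fold change of each gene between libraries labelled shCRX and controls in D425 (red) and HD-MB03 (blue), with 95% intervals not adjusted for the number of genes. Filled points passed an adjusted p under 0.05, which were NQO1 (1.55) and SRXN1 (4.55) in D425 and SRXN1 (-5.22) in HD-MB03. SRXN1 passed the low-count filter only through its high groups.

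In D425, 3 of the 9 genes had all shCRX libraries above all controls (NQO1, SRXN1, HMOX1) and 2 had them below (NFE2L2, GCLC), where 11.5% of all tested genes did so in each direction. In HD-MB03, with 2 against 2 libraries, 2 lay above (GCLC, GCLM) and 3 below (KEAP1, NQO1, SRXN1), where 30.5% and 21.8% of all tested genes did so. SRXN1 entered the counts of both lines through a filter that it passed only in its high groups. The median log2 fold change over the 9 genes was 0.38 in D425 and 0.30 in HD-MB03, beside 0.02 and 0.10 over all tested genes.

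The effect of the shCRX label differed between D425 and HD-MB03 for SRXN1 (log2 difference 9.77, 95% interval 7.63 to 11.9, edgeR adjusted p = 0.000424) and NQO1 (difference 2.77, 95% interval 1.83 to 3.72, edgeR adjusted p = 0.00508). The SRXN1 call was favoured in advance by the low-count filter, which the gene passed only through its high groups, and is a description. The difference did not pass for the other 7, and 2.67% of all tested genes were called in the direction of SRXN1 and NQO1 and 1.49% in the other. For HMOX1 the difference was 2.25 with a 95% interval of -0.97 to 5.46, and for GCLC it was -0.75 (95% interval -1.30 to -0.19, edgeR adjusted p = 0.120). The same 2 genes separated the library-number sets. NQO1 was at 35.9 to 91.6 CPM in the 5 libraries numbered 20 to 62, against 23.1 to 34.1 CPM in the 5 numbered 110 to 136. SRXN1 was at 1.75 to 4.68 CPM in the first set, against 0.0716 to 0.143 CPM in the second. Those low values are 1 or 2 reads a library, under the floor of 3 counts, so the size of the SRXN1 difference is uncertain. Of 16006 tested genes, 231 (1.44%) had all low-numbered libraries above all high-numbered ones and 193 (1.21%) below. Within a line, a value inside 1 set could not be had for any shCRX comparison, since each set holds 1 group only.

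**Figure D3:**
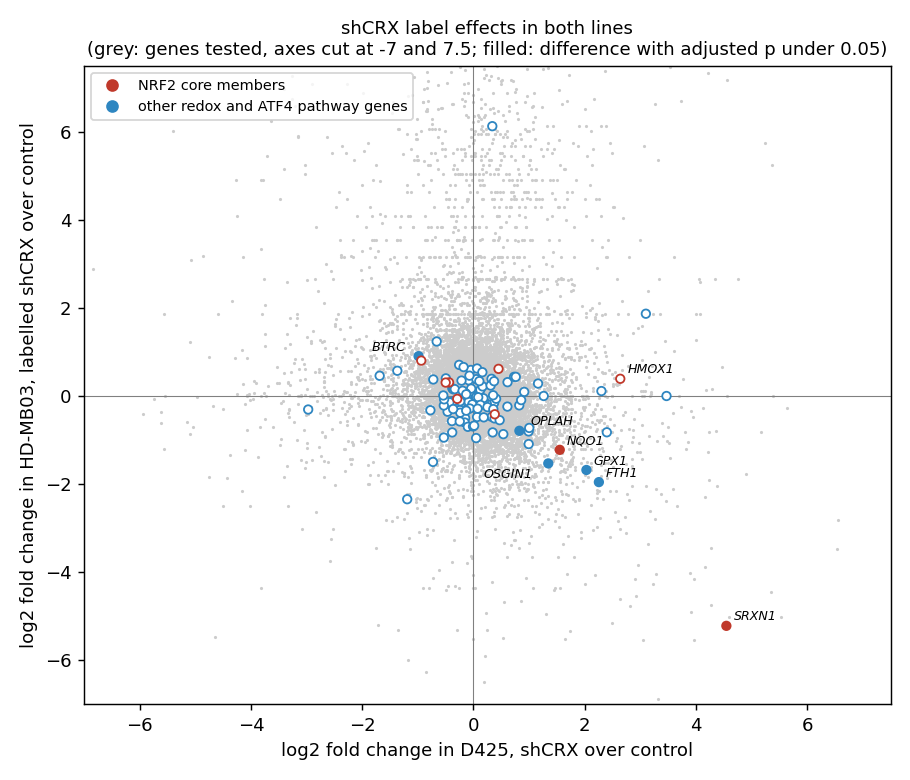
Log2 fold change between libraries labelled shCRX and controls in D425 (horizontal) and HD-MB03 (vertical) for the 9 genes (red), the other redox and ATF4 pathway genes (blue) and all tested genes (grey, axes cut at the limits given). Filled points had effects that differed between the lines. NQO1, SRXN1, FTH1, GPX1, OSGIN1 and OPLAH lie at the lower right, positive in D425 and negative in HD-MB03, and BTRC lies at the upper left.

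The lines were compared next. Averaged over both groups of each line, so that each side holds both number sets, 5 of the 9 genes were higher in D425 than in HD-MB03 and 0 were lower. The other 4 were not called, and 24.4% of all tested genes were called higher and 21.6% lower. SLC7A11 differed by 4.14 ± 0.65 on the log2 scale (SE, 95% interval 2.72 to 5.57, edgeR adjusted p = 0.000361). Its 6 D425 libraries lay between 21.5 and 284 CPM, all above the 4 HD-MB03 libraries at 4.16 to 14.7 CPM. GCLC differed by 0.89 ± 0.13 (95% interval 0.60 to 1.17, edgeR adjusted p = 0.000149), and again no library overlapped. Of all tested genes, 15.3% lay higher in all 6 D425 than in all 4 HD-MB03 libraries, as SLC7A11, GCLC and HMOX1 did. These 2 calls held in every alternative run, including both comparisons made within 1 number set.

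GCLM differed by 1.23 (95% interval 0.63 to 1.83, edgeR adjusted p = 0.00330), HMOX1 by 2.41 (95% interval 0.99 to 3.84, edgeR adjusted p = 0.0102) and TXNRD1 by 0.49 (95% interval 0.16 to 0.82, edgeR adjusted p = 0.0189). These 3 calls were less even over the sets. Between D425 shCRX and HD-MB03 control libraries, both numbered 20 to 62, GCLM differed by 1.76 and HMOX1 by 3.93, while TXNRD1 did not pass at 0.31 (edgeR adjusted p = 0.290), where 30.7% of all tested genes were called. Between D425 control libraries and HD-MB03 libraries labelled shCRX, both numbered 110 to 136, TXNRD1 differed by 0.67, while GCLM at 0.70 (edgeR adjusted p = 0.172) and HMOX1 at 0.90 (edgeR adjusted p = 0.405) did not pass, where 31.2% of all tested genes were called. Without the HD-MB03 parental library, HMOX1 (edgeR adjusted p = 0.0532) and TXNRD1 (edgeR adjusted p = 0.0761) lost their calls. TXNRD1 also lost its call without either HD-MB03 library labelled shCRX (edgeR adjusted p of 0.0510 and 0.0765).

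The regulators themselves did not pass between the lines. NFE2L2 differed by 0.24 (95% interval -0.20 to 0.69, edgeR adjusted p = 0.356) and KEAP1 by 0.16 (95% interval -0.27 to 0.60, edgeR adjusted p = 0.537). NQO1 differed by 0.30 (95% interval -0.17 to 0.76) and SRXN1 by -0.47 (95% interval -1.68 to 0.73). NQO1 was called at 0.66 without the HD-MB03 vector library (edgeR adjusted p = 0.0242). Markers of macrophages and microglia, cells in which HMOX1 is also abundant, summed to 0.827 to 4.35 CPM in D425 shCRX and 2.10 to 13.1 CPM in D425 control libraries. They summed to 0.715 to 1.22 CPM in the HD-MB03 libraries labelled shCRX, and all 7 were at 0 in the HD-MB03 controls. In those controls 1 read is 0.520 CPM (parental) or 0.536 CPM (vector). Of the 7 markers, 2 were tested, and these 2 were called higher in D425 than in HD-MB03, beside 24.4% of all tested genes. CD163 and AIF1 were at 0 in all 10 libraries, and the part of these markers in the HMOX1 difference was not tested.

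**Figure D4:**
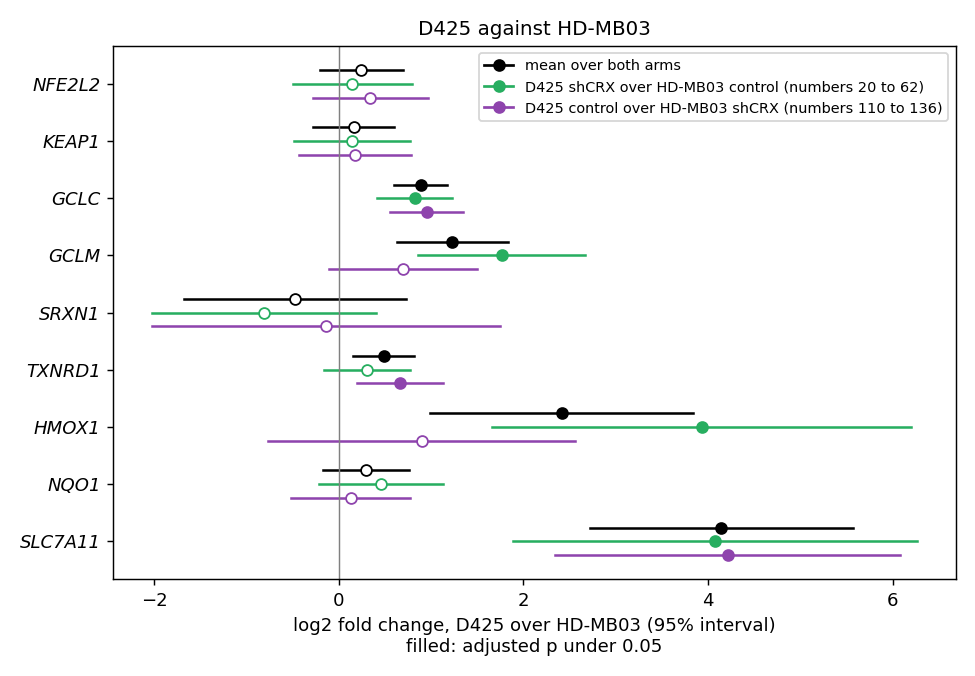
Log2 fold change of each gene between D425 and HD-MB03 with 95% intervals, averaged over both groups (black), within library numbers 20 to 62 (green) and within 110 to 136 (purple). Filled points passed an adjusted p under 0.05. SLC7A11 and GCLC are filled in all 3 comparisons, and NFE2L2, KEAP1, SRXN1 and NQO1 in none.

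Levels were compared between genes per kilobase of transcript. TXNRD1 was the highest of the 9 in every group, at 90.4 ± 16.6 CPM per kb in D425 shCRX, 110.6 ± 10.4 in D425 control, 69.7 ± 3.79 in HD-MB03 labelled shCRX and 72.9 ± 12.6 in HD-MB03 control libraries (SD, n = 3, 3, 2 and 2). SRXN1 was the lowest of the 9 in 3 groups, and in HD-MB03 controls it stood at 1.66 CPM per kb, above HMOX1 at 1.03 and SLC7A11 at 0.605. These HD-MB03 control values rest on 9 and 8 reads of SRXN1, 1 and 6 of HMOX1 and 8 and 14 of SLC7A11. With 84.95% of its exonic bases shared with another gene, the place of SRXN1 in any of these orders is uncertain. In D425 shCRX libraries the order below TXNRD1 was KEAP1 (38.6), NFE2L2 (36.1), NQO1 (27.6), GCLC (26.8), GCLM (18.004), HMOX1 (15.6), SLC7A11 (10.1) and SRXN1 (0.967 CPM per kb). The steps from KEAP1 to NFE2L2, from NQO1 to GCLC, from GCLM to HMOX1 and from HMOX1 to SLC7A11 were smaller than the SDs of the genes on either side. In D425 controls the order was TXNRD1, NFE2L2 (51.1), GCLC (36.3), KEAP1 (29.6), SLC7A11 (19.6), GCLM (13.1), NQO1 (9.41), HMOX1 (2.48) and SRXN1 (0.0350 CPM per kb). The mean of NQO1 stood beside that of GCLC in D425 shCRX libraries and below that of GCLM in D425 controls.

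The 3 D425 shCRX libraries were unlike each other for several members. The library shCRX 2 was the highest of the 6 D425 libraries for KEAP1, GCLM, SRXN1, HMOX1 and NQO1 and the lowest for SLC7A11. The vector library was the highest for the other 4. The range within the shCRX group was 9.56-fold for SLC7A11, 6.56-fold for HMOX1, 2.62-fold for GCLM and 2.11-fold for KEAP1, and at most 2.20-fold for any of the 9 genes within the D425 controls. ATF4, a transcription factor of the amino acid and endoplasmic reticulum stress response, also acts on SLC7A11. Genes known as ATF4 targets were low in shCRX 2 as well, a pattern of a single library whose cause was not tested. Of 12 ATF4 target genes, 11 were lowest in shCRX 2 among the D425 libraries, as were 25.8% of all tested genes. In shCRX 1, 6 were highest (19.9% of all tested genes), and in the vector library 5 (18.7%). TRIB3, a pseudokinase, was at 663, 66.2 and 178 CPM in shCRX libraries, against 100, 109 and 294 CPM in controls. ASNS, asparagine synthetase, was at 688, 94.1 and 641 CPM in shCRX libraries, against 622, 641 and 989 CPM in controls. None of the 12 passed in D425 or in HD-MB03, and 9 of 12 were called higher in D425 than in HD-MB03, beside 24.4% of all tested genes. The number called was 3 within numbers 20 to 62 and 9 within 110 to 136, where 30.7% and 31.2% of all tested genes were called. Fewer were also called with parental controls only, a fit that leaves a single HD-MB03 control.

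**Figure D5:**
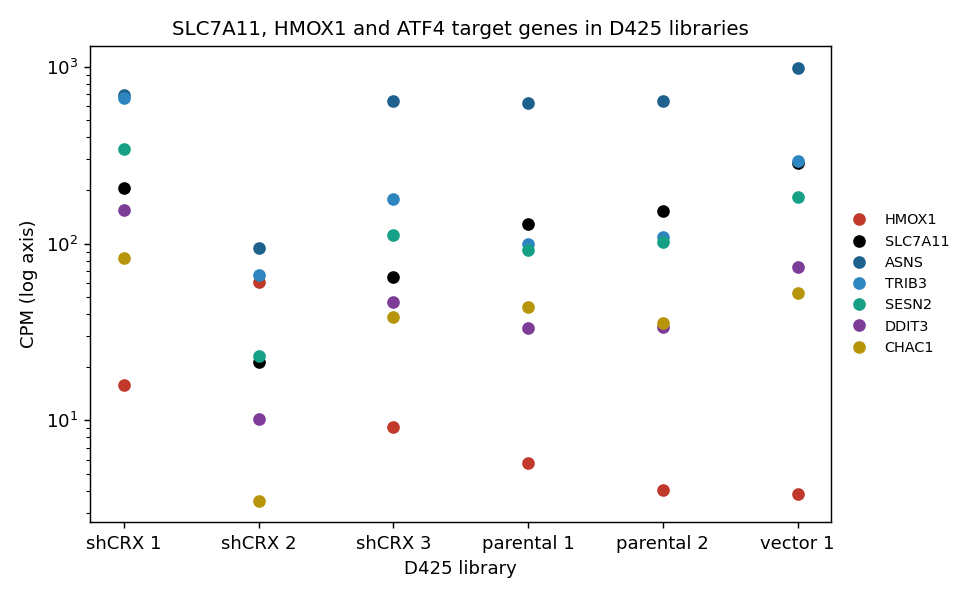
Levels of SLC7A11, HMOX1 and 5 genes known as ATF4 targets in the 6 D425 libraries, in CPM on a log axis. In shCRX 2, SLC7A11 (21.5 CPM) and the ATF4 targets are at their lowest, and HMOX1 (60.4 CPM) is at its highest.

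Further genes of the pathway were counted in lists. Of 31 tested other NRF2 targets, 5 rose in D425 shCRX libraries and 0 fell, where 1.61% and 1.37% of all genes did. OSGIN1, an oxidative stress-induced growth inhibitor, was at 78.1, 63.3 and 41.7 CPM in shCRX libraries, against 15.8, 23.1 and 33.6 CPM in controls (log2 fold change 1.35, edgeR adjusted p = 0.0388). The other 4 are named after their values were seen. FTH1, the ferritin heavy chain that stores iron, was at 55.8, 40.7 and 51.2 CPM in shCRX libraries, against 7.84, 11.8 and 11.5 CPM in controls (log2 fold change 2.26, edgeR adjusted p = 0.000585). The aldo-keto reductases AKR1C1, AKR1C2 and AKR1C3, which reduce carbonyls and steroids, had log2 fold changes of 3.47, 2.40 and 3.10 from levels of at most 1.55 CPM in controls. The count was 2 without D425 parental 1, which ended the calls of OSGIN1, AKR1C2 and AKR1C3 (edgeR adjusted p of 0.137, 0.147 and 0.0556). In all, OSGIN1 lost its call in 6 of the 10 fits that leave out 1 library, AKR1C2 in 4 and AKR1C3 in 1, while FTH1 and AKR1C1 lost it in 0. The AKR1C genes are near-identical copies and FTH1 has many processed copies, so their reads are uncertain. In HD-MB03, 1 of the 31 passed, where 0.262% of all genes were called higher and 1.24% lower. FTH1 was at 11.4 and 14.97 CPM in the libraries labelled shCRX, against 49.97 and 52.5 CPM in controls (log2 fold change -1.96, edgeR adjusted p = 0.00752). FTH1 thus separated the library-number sets in the same way as NQO1 and SRXN1. The median log2 fold change over the 31 was 0.08 in D425 and -0.11 in HD-MB03.

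Of 17 tested genes of the glutathione system, GPX1, the cytosolic glutathione peroxidase, was the 1 that rose in D425 and 0 fell, beside 1.61% and 1.37% of all tested genes. It was at 45.9, 72.2 and 74.7 CPM in shCRX libraries, against 18.2, 14.7 and 13.9 CPM in controls (log2 fold change 2.03, edgeR adjusted p = 0.00117). In HD-MB03 it was at 60.2 and 78.3 CPM in the libraries labelled shCRX, against 258 and 186 CPM in controls (log2 fold change -1.68, edgeR adjusted p = 0.0138). The HD-MB03 calls of FTH1 and GPX1 were lost in 3 of the 10 fits that leave out 1 library, these being parental 1, shCRX 1 and shCRX 2 of that line. Of 17 partners and regulators of NRF2, BTRC, an F-box protein that also directs NRF2 to degradation, was the 1 that fell in D425, beside 1.37% of all tested genes, and was at 72.9 to 94.6 CPM in shCRX libraries, against 159 to 198 CPM in controls (log2 fold change -0.99, edgeR adjusted p = 0.0373). That call was lost in 5 of 10 such fits, without parental 1, the vector library or any 1 of the D425 shCRX libraries (edgeR adjusted p of 0.0541 to 0.134). Of the superoxide and peroxide enzymes, 1 of 6, the superoxide-producing oxidase NOX5, fell in D425, beside the same 1.37% of all tested genes (log2 fold change -2.97, edgeR adjusted p = 0.0217, and 0.0594 without shCRX 3). Of 17 thioredoxin and peroxiredoxin genes, 0 passed in D425, and 1, the mitochondrial thioredoxin TXN2, was lower in the HD-MB03 libraries labelled shCRX, beside 1.24% of all tested genes (log2 fold change -0.96, edgeR adjusted p = 0.0498), a call lost in 9 of 10 such fits.

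Between the lines, 15 of 31 other NRF2 targets were higher in D425 and 2 were lower, beside 24.4% and 21.6% of all tested genes. IDH1, the cytosolic NADP-dependent isocitrate dehydrogenase, averaged 419 ± 174 CPM in D425 shCRX and 324 ± 84.8 CPM in D425 control libraries (SD, n = 3 each). It averaged 29.9 ± 5.37 CPM in HD-MB03 labelled shCRX and 23.7 ± 6.23 CPM in HD-MB03 control libraries (SD, n = 2 each), a line difference of 3.79 on the log2 scale (edgeR adjusted p = 1.06e-06). PIR, BLVRB and CBR1 were also higher in D425, by 1.62, 2.04 and 0.98, and OSGIN1 by 2.09. AKR1B10, an aldo-keto reductase, was lower in D425 by a log2 difference of -2.52 (edgeR adjusted p = 0.000134). Of 17 glutathione genes, 8 were higher in D425 and 3 lower. SLC3A2, the heavy chain that partners SLC7A11 at the membrane, was higher by 1.05 (edgeR adjusted p = 0.000600), and GPX1 was lower (log2 difference -1.97). Of 17 partners and regulators, 5 were higher, among them NFE2L1 (1.51) and the small MAF genes MAFF (2.25) and MAFG (0.84), and 2 were lower, among them MAFK (-0.90). MAFG lost its call without the HD-MB03 vector library (edgeR adjusted p = 0.0515), and MAFK without HD-MB03 parental 1 or shCRX 2 (edgeR adjusted p of 0.0524 and 0.0638). Of 17 thioredoxin and peroxiredoxin genes, 3 were higher and 2 lower, with TXN, cytosolic thioredoxin, at -0.66. Within library numbers 20 to 62, 30.7% of all tested genes were called. Of the lists, 23.5% of partners and regulators (4), 52.9% of glutathione genes (9) and 17.6% of thioredoxin and peroxiredoxin genes (3) were called there. Within 110 to 136, 31.2% of all tested genes were called. The lists gave 17.6% of partners and regulators (3), 35.3% of glutathione genes (6) and 29.4% of thioredoxin and peroxiredoxin genes (5). Fewer partners and regulators than in the main fit were also called in fits that leave a single library in an HD-MB03 group.

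The protein-coding genes most like each member were ranked by Pearson's r of log2 CPM with each line's mean subtracted, over 10 libraries and 10458 genes of at least 5 CPM on average. These values describe libraries that also share number set and depth. For members other than HMOX1, the closest were PFDN4 for NFE2L2 (r = 0.964), SLC35A4 for KEAP1 (0.964), TSPYL1 for GCLC (0.977), STIL for GCLM (0.969), ZNF428 for SRXN1 (0.991), PALMD for TXNRD1 (0.962), CTNNBIP1 for NQO1 (0.961) and PBX2 for SLC7A11 (0.956). No member was among the 3 closest of another.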

How the data were processed

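Poly(A)-selected RNA of 10 libraries was sequenced. The authors deposited raw read counts for each gene in 1 table a library. The submitters' processing notes name bcl2fastq, HISAT2, HTSeq, DESeq2 and build GRCh37 (hg19); versions and strand setting are not given in the sources used here. Symbols, transcript lengths and overlaps came from GENCODE v29 (GRCh38), matched by identifier without version (51996 of 57820 matched). The 5 summary entries per file were left out, and 50.5% to 79.3% of entries were counted in genes.

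Tests used edgeR 4.0.16 in R 4.3.3 (TMM scaling, filterByExpr on 4 groups of line and label, robust quasi-likelihood fit, 6 residual degrees of freedom, two-sided, adjusted p under 0.05). The biological coefficient of variation was 26.0%. Contrasts were shCRX against control in D425, in HD-MB03, their mean, their difference, and D425 against HD-MB03 averaged over both labels. CPM use the TMM-scaled library size. A floor of 3 counts is 0.166 to 1.53 CPM of the unscaled total, and intervals of read ratios are exact and cover counting error only. DESeq2 1.42.0 and limma 3.58.1 served as alternatives. Separate cultures are not stated in the labels, so the p-values cover only the spread among these libraries, possibly technical. Same-numbered D425 parental and shCRX libraries share only that number (r = 0.0137), so no block was used.

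The 9 genes and the gene lists were chosen with earlier results of these data known. The naming rule allowed the 9 genes, up to 6 called genes per list with the smallest adjusted p over the 5 contrasts, and the 3 genes most like each member, of which at most the closest is printed. Genes named beyond it are marked or serve as checks. The scripts were tested on simulated data. The genes closest in pattern to HMOX1 are not reported here.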

Additional observations from a re-analysis of the deposited data

Results flagged for a closer look

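The effect of the shCRX label differed between D425 and HD-MB03 by a test of the difference itself (edgeR, adjusted p under 0.05) for the following genes, as the D425 effect minus the HD-MB03 effect on the log2 scale. Among the 9 NRF2 response genes, SRXN1 differed by 9.77 and NQO1 by 2.77. On its low side in each line, SRXN1 had 1 or 2 reads a library, so the size of its difference is uncertain. SRXN1 also passed the low-count filter only through its high groups, which favoured this call in advance. Among other pathway genes, FTH1 differed by 4.21, GPX1 by 3.71, OSGIN1 by 2.88, OPLAH, a glutathione-cycle enzyme, by 1.62 and BTRC by -1.89. The differences of OPLAH, OSGIN1 and BTRC were lost in 7, 3 and 1 of the 10 fits that leave out 1 library. CRX itself differed by -2.14, and the photoreceptor genes IMPG2 and EYS by -1.47 and -1.85. In each line the library-number sets and the label coincide, and a set difference of equal size in both lines falls wholly on this contrast. The sets and the label cannot be told apart here. The differences also rest on the HD-MB03 labels as given. An exchange of those labels, against which CRX goes, was not tested, and it would turn the sign of the HD-MB03 effects that enter them.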

How the results depend on the processing

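Beside the main analysis, 24 settings were run, counting the 10 that leave out 1 library. SRXN1, where counted among the called genes below, passed the low-count filter of the main analysis only through its high groups. The number of the 9 genes called in D425 (2) was 0 with vector controls only and 1 with libraries thinned to equal depth, where SRXN1 was too low to be tested. It was 3, with HMOX1 added, by DESeq2, with library totals and without a filter, and 2 to 3 leaving out 1 library. In HD-MB03 (1) it was 2 with DESeq2 and without a filter on low counts, 0 with vector controls only and when thinned, and 0 to 1 leaving out 1 library (0 without HD-MB03 parental 1 or shCRX 2). In the mean it was 0 throughout. For the difference of the effects (2) it was 1 when thinned and 2 in each fit leaving out 1 library. Between lines (5) it was 2 with vector controls only, 3 within library numbers 110 to 136, and 3 to 6 leaving out 1 library (3 without HD-MB03 parental 1).

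The following log2 fold changes changed sign, none of them a call. Leaving out 1 library, KEAP1 in D425 ranged from -0.034 to 0.57 and GCLM from -0.018 to 0.71, both lowest without shCRX 2. In HD-MB03, NFE2L2 ranged from -0.071 (without parental 1) to 0.87, TXNRD1 from -0.22 to 0.15 (without the vector library), HMOX1 from -0.68 (without shCRX 2, and -0.39 without parental 1) to 2.22, and SLC7A11 from -0.035 (without shCRX 2) to 1.34. NQO1 in the mean ranged from -0.067 (without HD-MB03 parental 1) to 0.52. With vector controls only, NFE2L2 was -0.089 and HMOX1 -0.40 in HD-MB03, and NQO1 was -0.063 between lines. TXNRD1 in HD-MB03 was 0.0058 without a filter and 0.12 with parental controls only, and GCLC there was -0.0087 with a correction for GC content and length. The causes were not tested. By the scaling factors, library totals shift log2 fold changes by 0.13 in D425 and 0.11 between lines, and fitted values of single genes moved by more or less than that.

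Over all genes, calls in D425 (476) ranged from 21 with vector controls only to 1211 without a filter, with 990 by DESeq2 and 185, 217 and 243 without the D425 vector library, parental 1 or shCRX 3. In HD-MB03 (241) they ranged from 15 without HD-MB03 shCRX 2 to 793 by DESeq2, with 31 without HD-MB03 parental 1, 82 without HD-MB03 shCRX 1 and 146 without D425 shCRX 3. In the mean (36) they ranged from 1 to 405, and for the difference (666) from 55 to 1579. The other NRF2 targets called in D425 (5) were 0 with vector controls only, 3 with parental controls only and 3 when thinned. A replicate block gave 2, 1, 0, 2 and 5 called among the 9 genes in D425, HD-MB03, the mean, the difference and between lines, the counts of the fit without it, and 586 genes in D425. In the mean it gave 57 genes, against 36. Without both HD-MB03 controls, the libraries with the most unaligned reads, 2 of the 9 genes were called in D425, a fit chosen after seeing the data, as were the comparisons within number sets. With 2 libraries a group in HD-MB03 and about 2 M reads in its controls, SRXN1 and HMOX1 rest on few reads there.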
